A study of Mus musculus with 12 samples.

Results

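The genes that encode the subunits of AMPA and NMDA receptors, the main fast glutamate receptors of the brain, were followed in the hippocampus of mice that lack 1 working copy of Nell1. The 10 genes (Gria1, Gria2, Gria3, Gria4, Grin1, Grin2a, Grin2b, Grin2c, Grin2d and Grin3a) were taken by mouse gene symbol and matched to their Entrez IDs in a table of 27179 gene IDs. All 10 passed the filter on low counts and were among the 17937 genes tested. RNA came from 12 mice aged 3 months, 6 WT littermates and 6 Nell-1+/6R mice, and each genotype was represented by 3 females and 3 males. Nell-1+/6R mice carry a chemically induced loss-of-function mutation of Nell1 on 1 chromosome in every cell of the body, and heterozygotes were used because mice with 2 mutant copies die at birth. No treatment is named for these mice, the sources used here do not state their strain, and each library holds RNA of mixed hippocampal cells. In such bulk RNA, fewer cells of a type and less RNA per cell cannot be told apart.

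AMPA receptors are assembled from the products of Gria1 to Gria4 and carry most of the fast current at excitatory synapses. NMDA receptors contain the obligatory subunit encoded by Grin1 together with products of Grin2a to Grin2d or Grin3a, pass calcium when glutamate binds while the membrane is depolarised, and are known for their part in hippocampal synaptic plasticity. Principal neurons of the hippocampus are known to use mainly Gria1 and Gria2, and Grin1 with Grin2a and Grin2b, while Grin2c and Grin2d are better known from the cerebellum, astrocytes, thalamus and interneurons.

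The stretch of coding sequence around the pore loop shows how alike the AMPA subunit genes are, and therefore what a read count can and cannot tell about them. The capitals mark the genomic codon of the Q/R site, at which the Gria2 transcript is known to be edited in neurons and which sets calcium permeability. The sequences are those of GENCODE M21 transcripts (GRCm38), written on the coding strand, and all 4 stretches lie in exon 11.
Gria1: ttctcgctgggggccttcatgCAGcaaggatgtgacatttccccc
Gria2: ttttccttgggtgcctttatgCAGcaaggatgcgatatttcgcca
Gria3: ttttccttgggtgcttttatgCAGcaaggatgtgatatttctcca
Gria4: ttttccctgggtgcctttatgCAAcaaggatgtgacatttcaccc
They lie at chr11:57243073-57243117 on the plus strand for Gria1, at chr3:80706890-80706934 on the minus strand for Gria2, at chrX:41610244-41610288 on the plus strand for Gria3 and at chr9:4464116-4464160 on the minus strand for Gria4. The codon is number 600 of Gria1, 607 of Gria2, 612 of Gria3 and 608 of Gria4. It is CAG in 3 of the genes and CAA in Gria4, so the genome encodes glutamine in each. Over the 45 bases, Gria2 and Gria3 differed at 3 positions, Gria1 and Gria2 at 9. Counts per gene hold no base calls, so the editing of Gria2 was not measured here.

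The reads were 50 bases long, and few stretches of that length were common to any of the 10 genes. Gria2 shared 9 of its 15690 annotated 50-base stretches with Gria3, and 8 with Gria4. The longest run common to Gria2 and Gria3, 56 bases, is shown because reads inside it cannot be assigned to either gene.
Gria2 and Gria3: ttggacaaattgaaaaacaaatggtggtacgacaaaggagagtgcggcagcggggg
Gria3 and Gria4 shared 4 stretches, and no stretch was shared between the other members. Grin1 overlaps the antisense RNA gene Grin1os over 1307 exon bases. Grin1os had 3129 counts in all over the 12 mice, and since the strand setting of the counting is not given, the reads of that overlap cannot be told apart.

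The libraries held 10834905 to 16016317 counts each. Nell1, the mutated gene, was measured at 30.5 to 44.7 CPM (a gene's count scaled to the total count of its library) in the WT mice and at 16.5 to 21.4 CPM in the Nell-1+/6R mice, with no overlap. Its log2 fold change, Nell-1+/6R minus WT, was -0.93 (SE 0.0803, adjusted p = 0.00015, edgeR's quasi-likelihood test), so the levels followed the genotype labels. All 12 markers of hippocampal principal neurons were expressed, with sums of 3492 to 3958 CPM in WT and 3384 to 4310 CPM in Nell-1+/6R mice. The replicate 3 female of the Nell-1+/6R group, called female Nell-1+/6R 3 below, also held cerebellar neuron transcripts, with 13.5 CPM of Gabra6 against 0 to 0.0807 CPM in the other 11 mice. The 6 cerebellar markers summed to 153 CPM in that library, to 9.72 to 22.9 CPM in the WT mice and to a median of 13.5 CPM in the Nell-1+/6R mice. Choroid plexus markers ranged from 50.1 to 4552 CPM in WT and from 41.8 to 5236 CPM in Nell-1+/6R mice. The 10 leptomeningeal fibroblast markers had a median log2 difference of -1.01, with 6 lower at an unadjusted p under 0.05, beside 3.26% of all genes in either direction.

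Against that background, the comparison of genotypes asked whether the hippocampus with reduced Nell1 makes a different amount or mix of glutamate receptor transcripts. None of the 10 subunit genes differed between the genotypes at an adjusted p under 0.05 (edgeR with sex as covariate, every adjusted p = 1.00), against 0.039% of all genes tested. None passed the study's thresholds of an unadjusted p under 0.05 with a fold change above 1.5, which 1.46% of all genes did. Only Grin2d reached an unadjusted p under 0.05, which 3.26% of all genes did, and 1.06% did so in the direction of higher in Nell-1+/6R. No member separated the 6 mice of a genotype from the other 6, as 0.178% of all genes did. The fitted differences were small, with 9 of 10 above 0 and a median of 0.06 on the log2 scale, beside a median of -0.00076 over all genes tested. For 8 of the 10 genes the 95% interval lay within a 1.5-fold change in either direction, so that for these a change of that size or larger fell outside the interval. The exceptions were Grin2a and Grin3a, whose intervals were wider.

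**Figure D1:**
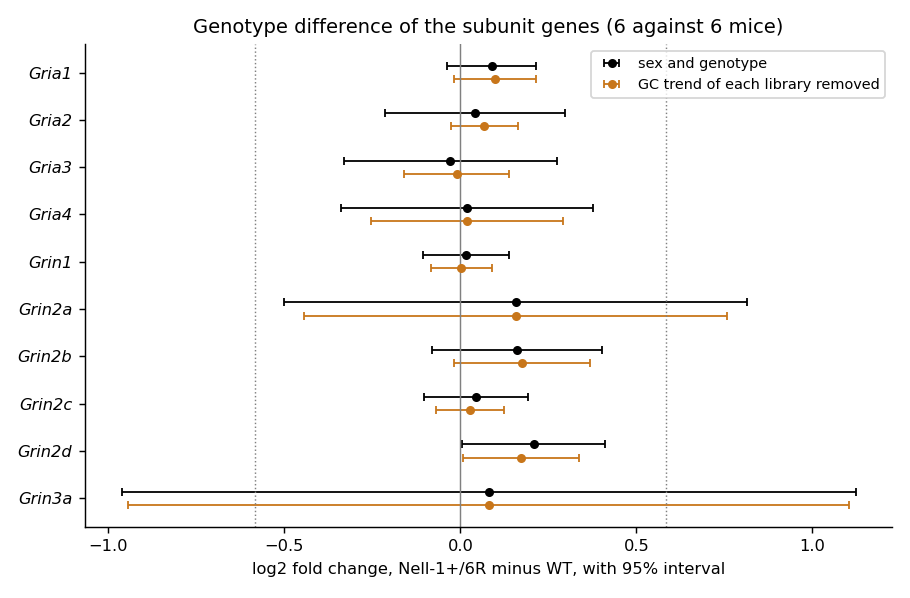
Log2 fold change of each subunit gene, Nell-1+/6R minus WT, with its 95% interval over 6 against 6 mice, from the model of sex and genotype (black) and after the GC trend of each library was removed (orange). Dotted lines mark a 1.5-fold change. The intervals of Grin2a and Grin3a cross a dotted line, and those of Grin2d alone lie above 0.

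Gria1 (Entrez 14799, chr11:57011571-57330244, plus strand) encodes the AMPA subunit known for its activity-dependent delivery to hippocampal synapses. It lay at 1037, 1178 and 1261 CPM (lowest, median and highest) in the WT mice and at 1124, 1250.4 and 1345 CPM in the Nell-1+/6R mice. The genotypes overlapped, although 3 of the 6 Nell-1+/6R mice were above the highest WT mouse. The log2 difference was 0.09 (95% interval -0.04 to 0.22, unadjusted p = 0.153, edgeR). The spread over the WT mice was 6.69% (CV).

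Gria2 (Entrez 14800, chr3:80681450-80804227, minus strand) encodes the subunit that makes AMPA receptors nearly impermeable to calcium once edited. The WT mice lay at 392, 496 and 574 CPM, the Nell-1+/6R mice at 401, 501 and 637 CPM. The lowest mice of the genotypes were alike and 2 Nell-1+/6R mice exceeded every WT mouse. The difference was 0.04 (-0.21 to 0.30, unadjusted p = 0.726, edgeR).

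Gria3 (Entrez 53623, chrX:41400819-41678601, plus strand) is the X-linked member and is known as a partner of Gria2 in hippocampal AMPA receptors. Its lowest, median and highest values were 124, 152 and 188 CPM in WT and 110, 148 and 192 CPM in Nell-1+/6R mice. The latter spanned the whole WT range, with 2 below it and 1 above it. It was the only member with a fitted value below 0, at -0.03 (-0.33 to 0.27, unadjusted p = 0.845, edgeR).

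Gria4 (Entrez 14802, chr9:4417893-4796234, minus strand), whose product is known from interneurons, thalamus and cerebellum more than from principal neurons, lay at 41.3, 47.8 and 52.7 CPM in the WT mice. In the Nell-1+/6R mice it lay at 28.7, 47.8 and 67.0 CPM. The medians were alike but the spread was not, with a CV of 9.32% in WT and 29.5% in Nell-1+/6R mice. The extremes were female Nell-1+/6R 1 at the bottom and female Nell-1+/6R 3, the library with cerebellar markers, at the top. The difference was 0.02 (-0.34 to 0.38, unadjusted p = 0.915, edgeR).

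Grin1 (Entrez 14810, chr2:25291177-25319187, minus strand) encodes the subunit that every NMDA receptor needs. It varied least of the 10 over the 12 mice, the highest being 1.19 times the lowest. The WT mice lay at 436, 469.9 and 518 CPM, the Nell-1+/6R mice at 439, 482 and 506 CPM, all of them inside the WT range. The difference was 0.02 (-0.11 to 0.14, unadjusted p = 0.792, edgeR).

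Grin2a (Entrez 14811, chr16:9567901-9996083, minus strand) and Grin2b (Entrez 14812, chr6:135713221-136173615, minus strand) encode the principal glutamate-binding subunits of forebrain NMDA receptors, of which the Grin2b product is known to prevail early in life and the Grin2a product later. Grin2a rested on 85 to 378 counts a mouse. It lay at 7.85, 9.97 and 18.7 CPM in the WT mice and at 7.58, 9.27 and 28.7 CPM in the Nell-1+/6R mice. The highest value in each genotype stood well above the rest, from male WT 2 and from male Nell-1+/6R 3. The log2 difference of 0.16 had an interval of -0.50 to 0.82 (unadjusted p = 0.617, edgeR). Without male Nell-1+/6R 3 it was -0.24, so that library decided its direction.

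Grin2b lay at 83.7, 94.0 and 109 CPM in WT and at 91.8, 97.0 and 148 CPM in Nell-1+/6R mice. The highest value again came from male Nell-1+/6R 3, and the other 5 Nell-1+/6R mice lay inside the WT range. The difference was 0.16 (-0.08 to 0.40, unadjusted p = 0.174, edgeR), and 0.04 without that mouse.

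Grin2c (Entrez 14813, chr11:115249169-115267297, minus strand), best known from cerebellar granule cells and astrocytes, lay at 78.2, 91.8 and 99.6 CPM in WT and at 83.4, 92.2 and 104 CPM in Nell-1+/6R mice. The ranges nearly coincided, and the difference was 0.05 (-0.10 to 0.19, unadjusted p = 0.523, edgeR). The library with cerebellar markers was at 90.3 CPM, inside the WT range.

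Grin2d (Entrez 14814, chr7:45831883-45871194, minus strand), known in the hippocampus from interneurons, lies on the same chromosome as Nell1 and ends 4.104 Mb before Nell1 starts. The WT mice were at 18.4, 19.7 and 21.9 CPM. The female Nell-1+/6R mice were at 25.2, 25.6 and 17.9 CPM. Of the male ones, 2 were at 23.4 and 23.6 CPM and the other lay inside the WT range. Thus 4 of 6 Nell-1+/6R mice lay above every WT mouse, while female Nell-1+/6R 3 was the lowest of all 12. The fitted log2 difference was 0.21 (interval 0.0047 to 0.41, unadjusted p = 0.0456, adjusted p = 1.00, edgeR), a fold of 1.16. Over the 22 other ways the fit was run, an unadjusted p under 0.05 was reached in 10, and the smallest adjusted p was 0.544. That smallest value came without female Nell-1+/6R 3, where the difference was 0.29 (unadjusted p = 0.00135) and 5.12% of all genes had an unadjusted p under 0.05. Without each of 8 other mice in turn the unadjusted p rose above 0.05, to at most 0.113.

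Grin3a (Entrez 242443, chr4:49661611-49846023, minus strand) encodes a glycine-binding subunit known to lower the calcium flow of NMDA receptors. It was the rarest and most variable member, with 21 to 209 counts a mouse. The WT mice lay at 2.58, 5.13 and 10.7 CPM and the Nell-1+/6R mice at 1.66, 4.25 and 15.9 CPM. The highest mouse was 9.56 times the lowest, and both extremes were Nell-1+/6R mice. The difference of 0.08 had an interval of -0.96 to 1.12 (unadjusted p = 0.871, edgeR), and it was -0.39 without male Nell-1+/6R 3.

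**Figure D2:**
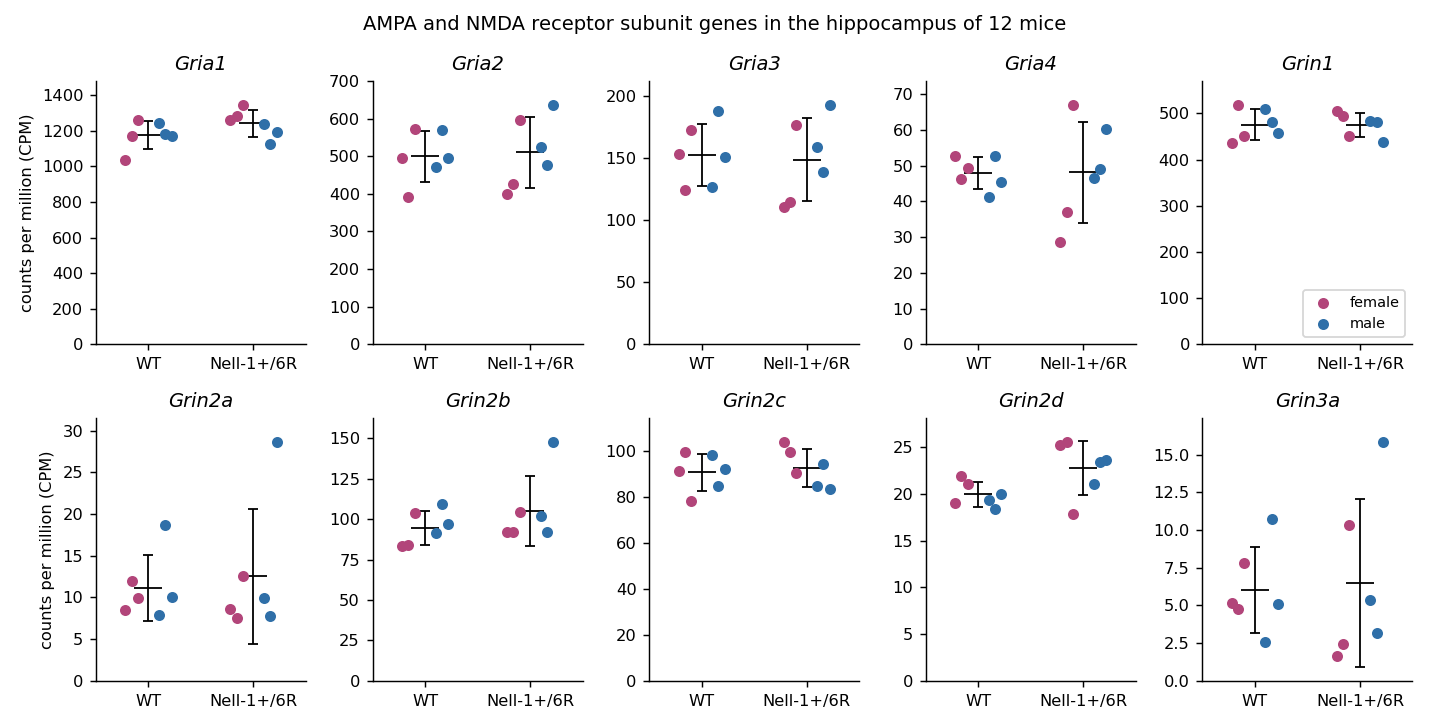
CPM of the 10 subunit genes in each of 12 mice by genotype, females in purple and males in blue, with the mean and SD of the 6 mice of a genotype in black; every axis starts at 0. The genotypes overlapped for each gene. The top Nell-1+/6R point of Grin2a (28.7 CPM), Grin2b (148 CPM) and Grin3a (15.9 CPM) is the same male.

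Some members had intervals as wide as those of genes of like level (within 0.5 on the log2 scale of the mean CPM), and others had wider ones. Gria1 and Grin1 had intervals of 0.254 and 0.244 on the log2 scale, close to the medians of 0.265 and 0.257 for such genes. Grin2c and Grin2d, at 0.297 and 0.407, were also near theirs (0.285 and 0.385). Gria2 had an interval of 0.511 against 0.256 for genes of like level, and Gria3 of 0.604 against 0.275. Grin2a and Grin3a had the widest intervals of the 10, 1.32 and 2.09, against 0.472 and 0.597 for genes of like level.

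Ratios between subunits within a library need no scaling between mice, and 3 were compared. The count ratio of Grin2a to Grin2b, which is known to rise as NMDA receptors mature, was 0.117 ± 0.0330 in the WT group and 0.112 ± 0.0423 in the Nell-1+/6R group (mean ± SD, n = 6 each), a log2 difference of -0.09 (exact permutation test, two-sided, p = 0.745). The ratio of Gria1 to Gria2 was 2.39 ± 0.361 in WT and 2.50 ± 0.484 in Nell-1+/6R mice (log2 difference 0.05, exact permutation p = 0.697, n = 6 each). Grin2b to Grin1 gave 0.2001 ± 0.0274 and 0.223 ± 0.0589 (log2 difference 0.13, exact permutation p = 0.485, n = 6 each). All 3 had an adjusted p of 0.745, where the splits of 12 mice into 6 and 6 allow a smallest p of 0.00216. Male Nell-1+/6R 3 was the highest mouse for Grin2a to Grin2b (0.194) and for Grin2b to Grin1 (0.337). Gria1 to Gria2 was highest in female Nell-1+/6R 1 (3.15) and lowest in male Nell-1+/6R 3 (1.88). Those libraries lie at opposite ends of the trend of gene level with GC content described below. A ratio can still hold such a trend, and none was recomputed with it removed.

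Levels of different genes were compared per kilobase of annotated exon, as a description. In the WT mice Gria1 led with 195 CPM per kilobase, followed by Grin1 with 49.1 and Gria2 with 32.1. Grin2c (18.0) and Gria3 (15.4) came next and their ranges over mice overlapped. Gria4 followed at 7.60, Grin2b at 3.82 and Grin2d at 3.00 CPM per kilobase. Grin2a (0.623) and Grin3a (0.490) were lowest and overlapped. All the other neighbours had separate ranges in the WT mice. The Nell-1+/6R mice gave the same order, with overlap also between Gria4 and Grin2b and between Grin2b and Grin2d. Gria1 made up 77.9 ± 2.48% of the AMPA subunit level per length in the WT group and 78.8 ± 3.59% in the Nell-1+/6R group (mean ± SD, n = 6). Grin1 made up 65.4 ± 0.956% and 64.2 ± 1.85% of the NMDA subunit level. The annotation the authors counted with is not known. With the longest annotated transcript as the length only 6 of the 10 genes held their rank: Gria3 (29.3) passed Grin2c (18.5), and Grin3a (0.804) passed Grin2a (0.763). The shares depend on the length too. In the WT mice that length took Grin1 from 49.1 to 111 CPM per kilobase, which makes its share larger. It took Gria1 from 195 to 212 and Gria2 from 32.1 to 48.2, which makes the share of Gria1 smaller. The SDs of the shares cover the spread between mice, not the choice of length.

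**Figure D3:**
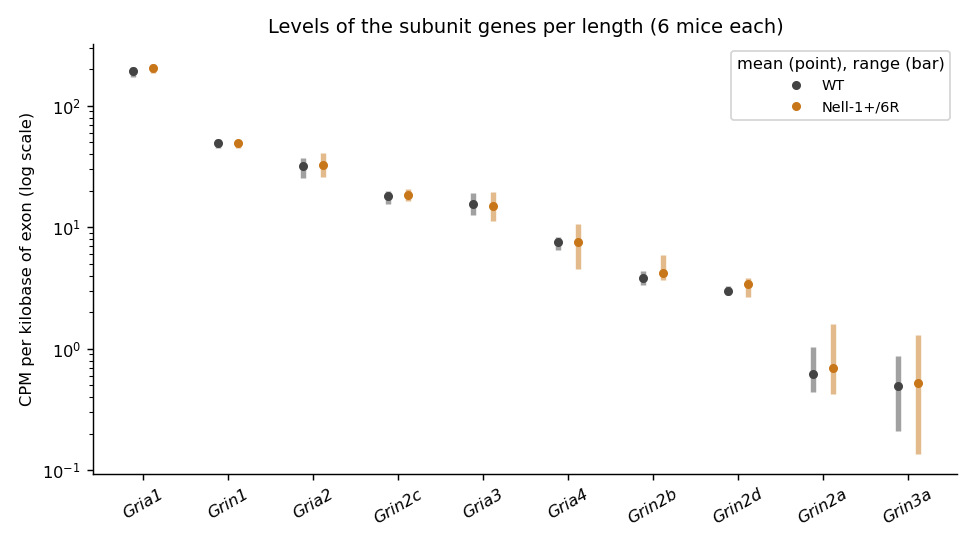
CPM per kilobase of annotated exon (log scale) for each subunit gene, with the mean (point) and the range (bar) over 6 WT mice in grey and 6 Nell-1+/6R mice in orange. Gria1 stood highest (195 CPM per kilobase in WT), Grin2a and Grin3a lowest (0.623 and 0.490).

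No member differed between females and males at an unadjusted p under 0.05 in the same fit, where 4.72% of all genes did. The fitted values were lower in females for 7 of the 10 genes. The smallest p belonged to Grin2b, with 93.3 ± 9.16 CPM in females and 106 ± 21.4 CPM in males (SD, n = 6 each; log2 difference, female minus male, -0.22, SE 0.112, unadjusted p = 0.0689, edgeR). X-linked Gria3 was at 142 ± 29.3 CPM in females and 159 ± 26.5 CPM in males (log2 difference -0.20, unadjusted p = 0.175, edgeR). Without female WT 3, Gria2 (-0.25, unadjusted p = 0.0475) and Grin2b (-0.29, unadjusted p = 0.0217) passed an unadjusted p under 0.05 in edgeR, as did 1365 of 17861 genes. Without male Nell-1+/6R 2 Grin2b alone of the members did (-0.28, unadjusted p = 0.0315, edgeR), as did 836 of 17866 genes. The smallest adjusted p of either gene for sex over the 19 alternatives was 0.523.

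The genotype difference was also compared between the sexes, since 3 mice of each sex and genotype were sequenced. With all 12 mice no member had an interaction at an unadjusted p under 0.05, where 3.09% of all genes did. This result depended on the library with cerebellar transcripts. Gria4 was at 52.7, 46.3 and 49.3 CPM in the female WT mice, and the female Nell-1+/6R mice were at 28.7, 37.1 and 67.0 CPM, the last being female Nell-1+/6R 3. The male WT mice were at 41.3, 52.7 and 45.5 CPM and the male Nell-1+/6R mice at 46.5, 49.2 and 60.2 CPM. With that library set aside, both remaining Nell-1+/6R females lay below every WT female, while the males overlapped. Without it, the Gria4 difference was -0.59 in females (unadjusted p = 0.00222, adjusted p = 0.351, edgeR) and 0.20 in males (unadjusted p = 0.157, edgeR). The female difference had an unadjusted p under 0.05 for 2291 of 17855 genes in that fit, against 510 of 17937 with all 12 mice. The Gria4 interaction was -0.79 (SE 0.202, unadjusted p = 0.00203, adjusted p = 0.479, edgeR).

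Gria3 and Grin3a followed the same form without that library. Gria3 had an interaction of -0.53 (unadjusted p = 0.0470) and Grin3a of -1.98 (unadjusted p = 0.0470), both with an adjusted p of 0.479 in edgeR. Across all genes, 10.3% had an interaction at an unadjusted p under 0.05 in that fit, 0 at an adjusted p under 0.05, and the female Nell-1+/6R arm was left with 2 mice assumed to vary like the other groups. Those 2 mice, female Nell-1+/6R 1 and 2, had the most positive GC slopes of the 12 libraries, and the part of that slope in the interaction was not tested. The interactions depended on other mice too. With only female Nell-1+/6R 1 left out, the Gria4 interaction was -0.12. With only male Nell-1+/6R 3 left out, it was -0.14 for Gria3 and 0.20 for Grin3a.

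**Figure D4:**
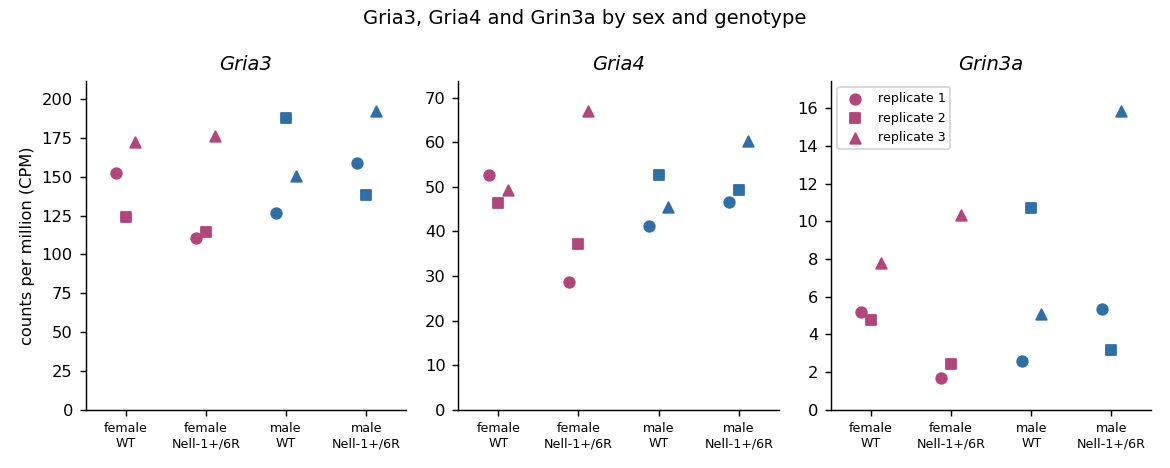
CPM of Gria3, Gria4 and Grin3a in each mouse by sex and genotype, with the marker giving the replicate number. Female Nell-1+/6R replicate 3 (triangle) lay at 67.0 CPM of Gria4, above the replicates 1 and 2 of its group at 28.7 and 37.1 CPM.

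The libraries differed in how gene levels ran with GC content. For each library, the deviation of a gene's log2 CPM from its mean over the 12 mice was related to GC content. This was done over 9733 genes of at least 10 CPM, with the GC content of the longest annotated transcript. These deviations still hold any difference between the sexes and genotypes. The slope ran from -0.183 log2 per 10 GC points in male Nell-1+/6R 3 to 0.225 in female Nell-1+/6R 1. It was -0.164 in female Nell-1+/6R 3, -0.115 in male WT 2 and -0.108 in female WT 3. At the other end were male WT 1 with 0.112, female WT 2 with 0.123 and female Nell-1+/6R 2 with 0.172. Both genotypes thus held libraries of each kind, but the steepest slopes in either direction belonged to Nell-1+/6R mice.

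Gria2 (36.8% GC) stood at 0.41 from its mean over all mice in male Nell-1+/6R 3 and at -0.36 in female Nell-1+/6R 1. Gria3 (39.8% GC) stood at 0.44 and -0.47 in the same mice. Grin3a, whose GC content of 49.2% is near the median of 50.2% of the genes compared, ranged widest, from -1.59 in female Nell-1+/6R 1 to 1.66 in male Nell-1+/6R 3. Gria1, at 48.5% GC, stood at 0.05 and 0.02 in the same mice. Of the GC-rich members, Grin1 held 59.4%, Grin2c 62.1% and Grin2d 65.0%. Grin1 stood at -0.11 in female Nell-1+/6R 3 and at 0.11 in male WT 1. Grin2c stood at -0.21 in female WT 3 and at 0.14 in female Nell-1+/6R 1. Grin2d stood at -0.28 in female Nell-1+/6R 3 and at 0.20 in female Nell-1+/6R 1. It was at 0.28 in female Nell-1+/6R 2, but also at 0.21 in male Nell-1+/6R 3, the library with the most negative slope.

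The GC trend of each library was then removed as a quadratic curve, an alternative added after the data had been seen. The within-group SD of Gria2 fell from 0.249 to 0.0585 on the log2 scale and that of Gria3 from 0.293 to 0.116. Grin1 and Grin2c also became steadier, from 0.0956 to 0.0647 and from 0.121 to 0.0730. Grin2a and Grin3a hardly moved, from 0.632 to 0.575 and from 1.04 to 1.01, and Grin2b went from 0.229 to 0.182. In the edgeR fit, where the trend was removed as a lowess curve, the interval of the Gria2 genotype difference narrowed to -0.03 to 0.16 around 0.07 (unadjusted p = 0.151). No member passed an adjusted p under 0.05 in that fit either, and Grin2d stood at 0.17 (interval 0.0065 to 0.34, unadjusted p = 0.0427, edgeR).

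**Figure D5:**
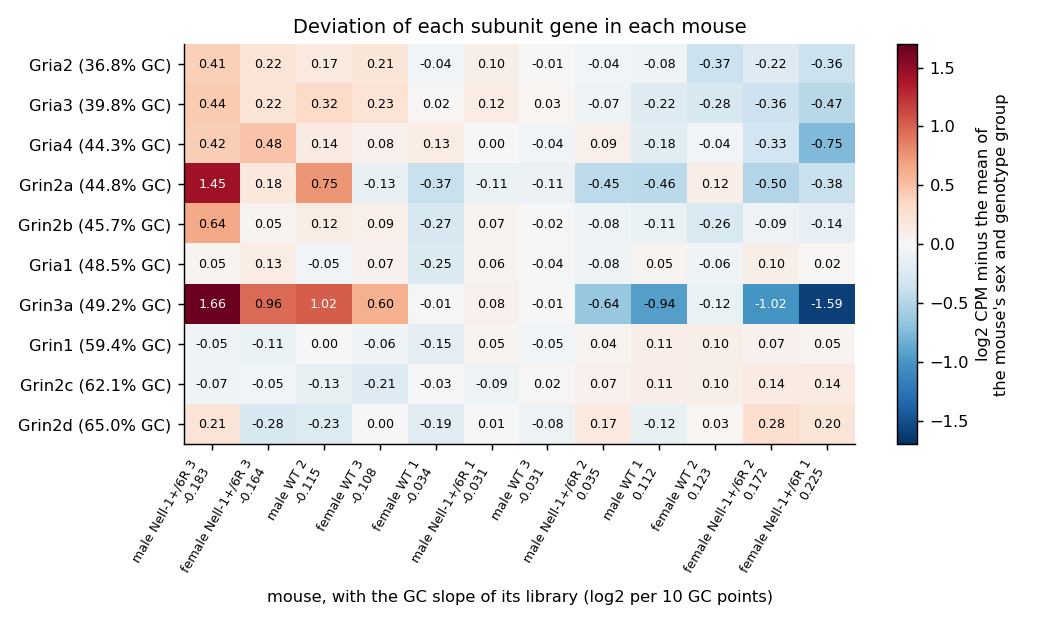
Deviation of log2 CPM of each subunit gene from its mean over the 12 mice. The values are not centred on the sex and genotype group that the label of the colour bar names. Genes are ordered from low to high GC content of their longest annotated transcript. Mice run from the most negative to the most positive GC slope of the library (log2 per 10 GC points). Red is above and blue below the mean of all mice. Gria2, Gria3, Gria4 and Grin3a run from red to blue across the mice, with Grin3a from 1.66 to -1.59, and Grin1 and Grin2c run weakly the other way.

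Many of the members varied together from mouse to mouse after the group means were removed, and 45 pairs were compared over the 12 mice. Of these, 20 had an adjusted p under 0.05 by Pearson's r (permutation test), 12 positive and 8 negative, and 16 did by Spearman's rho. The permutations shuffled the mice freely after the group means were removed, not within groups, so these p-values can be too small. Gria2 and Gria3 gave r = 0.961 (adjusted p = 0.00045, permutation) and rho = 0.965 (adjusted p = 0.00045, permutation), and r = 0.960 without the 2 mice farthest from the median. With the GC trend removed their r was 0.0042 (adjusted p = 0.988, permutation). Gria3 and Grin2c gave r = -0.904 (adjusted p = 0.00171, permutation) and rho = -0.888 (adjusted p = 0.00292), with r = -0.883 without 2 mice and 0.106 with the GC trend removed.

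The 2 pairs given next also had an adjusted p under 0.05 with the GC trend removed. Grin2a and Grin2b, partners of Grin1 in forebrain receptors, gave r = 0.850 (adjusted p = 0.00333, permutation) and rho = 0.776 (adjusted p = 0.0186), with r = 0.849 without 2 mice and 0.786 with the trend removed (adjusted p = 0.0238). Gria3 and Grin3a gave r = 0.951 (adjusted p = 0.00045, permutation) and rho = 0.874 (adjusted p = 0.00382), with r = 0.920 without 2 mice and 0.933 with the trend removed (adjusted p = 0.0018). With the trend removed, 7 of the 45 pairs had an adjusted p under 0.05, of which 4 were among the 20 above. The other 3 were Gria1 with Gria2 (r = 0.381 before and 0.826 after removal), Grin2b with Grin2d (-0.0170 and 0.772) and Gria4 with Grin2c (-0.581 and 0.707), the last with a change of sign.

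Among the 9876 genes of at least 10 CPM, those whose deviations from the group means were most like a member's over the 12 mice are named as a description. For Gria2 they were Kif2a (r = 0.993), Cacna2d1 (0.988) and Mpdz (0.986), and for Gria3 they were Mbnl2 (0.997), Kpna3 (0.996) and Nfat5 (0.995). Gria4 was nearest to Plcxd2 (0.979), Larp4 (0.979) and Gnl3l (0.961), and Gria1 to Supt6 (0.921), Il16 (0.908) and Scaf4 (0.908). Grin1 was nearest to Coro1c (0.991), Lin7b (0.984) and Klf13 (0.977). Grin2a was nearest to Nipbl (0.956), Vps13c (0.955) and Kcnq3 (0.951), and Grin2b to Cpd (0.955), Agps (0.953) and Cacna1b (0.944). Grin2c was nearest to Atp5l (0.975), Arfgap2 (0.965) and Dnajc9 (0.964), and Grin2d to Ostc (0.948), Znhit2 (0.938) and Tmem63b (0.932). All points of a pair share their libraries, so a trend of a whole library enters every one of these values.

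Since Gria4, Grin2c and Grin2d are known from other regions or cell types that a hippocampus sample can hold, each was set beside a marker score over the 12 mice. Gria4 and the thalamus and habenula markers gave r = 0.483 (permutation p = 0.111, adjusted p = 0.333) and rho = 0.650 (permutation p = 0.0256, adjusted p = 0.0767), with r = 0.485 without the 2 farthest mice. Those were female Nell-1+/6R 2 and male WT 1, so female Nell-1+/6R 3, the library with cerebellar markers, stayed in. Zic1, a gene of the thalamus and habenula list, was highest in that library, at 27.2 CPM. That list summed to 140 to 190.5 CPM in WT and 119 to 165 CPM in Nell-1+/6R mice. Of its 11 tested genes, 3 were lower in Nell-1+/6R at an unadjusted p under 0.05, beside 3.26% of all genes in either direction. Among the 3, Slc17a6 (log2 difference -1.23, adjusted p = 0.00350, edgeR) also passed the adjusted threshold. Slc17a6 lies on chromosome 7, as Nell1 does, and the part of that position in its value was not tested. The list had a median log2 difference of -0.19, with Tac2 (0.26) the only positive one. Grin2c and the astrocyte markers gave r = -0.153 (permutation p = 0.628, adjusted p = 0.628) and rho = -0.0629 (permutation p = 0.851), and r = 0.455 without 2 mice. Grin2d and the GABAergic neuron markers gave r = -0.201 (permutation p = 0.535, adjusted p = 0.628) and rho = -0.161 (permutation p = 0.622), and r = -0.318 without 2 mice. No relation of the 3 passed an adjusted p under 0.05. The GABAergic list summed to 606 to 698 CPM in WT and 642 to 768 CPM in Nell-1+/6R mice, and 2 of its 10 genes, Pvalb (0.29, unadjusted p = 0.0176, edgeR) and Sst (0.20, unadjusted p = 0.0187, edgeR), were higher at an unadjusted p under 0.05, beside 1.06% of all genes. The highest sum of this list (768 CPM) and the highest Pvalb value (46.7 CPM) were in female Nell-1+/6R 3, the library with cerebellar markers, while the other Nell-1+/6R mice had a mean of 30.8 CPM and the WT mice of 27.2 CPM. Without that library Pvalb stood at 0.21 (unadjusted p = 0.0424, edgeR) and Sst at 0.24 (unadjusted p = 0.00432, edgeR). The part of these genes in the Grin2d value was not tested.

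The genes that assemble, anchor, modify and feed the receptors were read from 6 lists of 64 genes, all of which were tested. Of these, 1 had an unadjusted p under 0.05, which is 1.56% of them against 3.26% of all genes, and 0 had an adjusted p under 0.05 in edgeR. Their median log2 difference was 0.02. The gene was Dao, which encodes D-amino-acid oxidase, an enzyme that breaks down the NMDA receptor co-agonist D-serine. Dao lay between 0 and 0.187 CPM in WT and between 0.144 and 2.17 CPM in Nell-1+/6R mice, with its highest value in female Nell-1+/6R 3, the library with cerebellar markers. It passed the filter only through 3 Nell-1+/6R mice, since 0 of the WT mice reached a CPM of 0.2, so its call is no independent sign of a difference. Without female Nell-1+/6R 3 its log2 difference went from 2.45 to 1.03 and its unadjusted p from 0.00728 to 0.109 (edgeR).

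None of the 19 AMPA receptor auxiliary and assembly genes passed an unadjusted p under 0.05, and 14 had a fitted value above 0. The smallest p in that list belonged to Shisa9, an auxiliary subunit (58.8 ± 5.13 CPM in WT against 51.4 ± 8.95 CPM in the Nell-1+/6R group, n = 6 each, with a log2 difference of -0.18). Cnih2, a cornichon that slows the closing of AMPA receptors, was at 542 ± 42.1 and 599 ± 107 CPM, with a log2 difference of 0.16. None of the 23 postsynaptic scaffold and trafficking genes passed either, with Nptxr, a receptor that gathers AMPA receptors, at 0.17 and Nptx1, its secreted relative, at 0.09.

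Of the 10 receptor kinases and phosphatases none passed. Camk2d (log2 difference -0.30) and Camk2g (-0.08), isoforms of the calcium- and calmodulin-dependent kinase, had the smallest p. The 3 RNA editing enzymes, of which Adarb1 is known to edit the Q/R site of Gria2, had fitted differences of -0.03 for Adarb1, from 244 ± 20.8 CPM in WT to 236 ± 12.8 CPM in the Nell-1+/6R group (SD, n = 6 each), and of -0.07 for Adarb2, and none passed. Of the 3 other ionotropic subunits none passed either, and Grid1 stood at 0.09.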

How the data were processed

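The authors deposited raw read counts per Entrez gene ID for 12 hippocampus libraries in 1 table, and the counts carry no normalization and no pooling. Per the labels the reads were aligned to mm10 with HISAT2 2.1.0 and counted with featureCounts 2.0.1. The sources used here do not give the annotation, the strand setting or how reads with several places were handled. Columns were assigned to mice through the short names in the labels, and 0 were left over. The labels do not say more of the replicates than that they are separate samples, so p-values measure the spread between these samples.

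The members and lists were chosen with earlier results of these data known, and the comparison of member pairs, the fit without the GC trend and the split by the library with cerebellar markers were added after values had been seen. Genes reaching a CPM of 0.2 in 2 or more mice were tested with edgeR 4.0.16 (R 4.3.3), by the quasi-likelihood test with TMM factors, sex and genotype, and Benjamini-Hochberg adjustment over all 17937 genes. Alternatives were limma-voom (limma 3.58.1), DESeq2 1.42.0, other scalings, filters and models, and each mouse left out. Scripts were tested on simulated data. The genes named are Nell1, all members, from each list those with an unadjusted p under 0.05 or else the 2 with the smallest p, the 3 genes most like each member of at least 10 CPM, and markers of reported lists. The values of 1 gene of these lists are not reported here. Correlations used log2 CPM with a prior count of 2, group means removed, and 100000 permutations over all mice. Since these did not stay within groups, the p-values of pairs and marker scores can be too small. The GC trend was a lowess curve of span 0.3 in the edgeR fit. For the within-group SDs and the correlations of pairs it was a quadratic curve instead. Positions, exon lengths and sequences are from RefSeq and GENCODE M21 (GRCm38), with a name for 25293 of 27179 IDs. With 10834905 to 16016317 counts a library, 1 CPM is about 11 to 16 counts. Tables and plots were made in Python 3.11.15 (matplotlib 3.10.9, numpy 2.4.6, pandas 2.3.3, scipy 1.17.1).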

Additional observations from a re-analysis of the deposited data

Results flagged for a closer look

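Of 42 groups of 6 mice examined, 6 held a mouse farther from the rest than Dixon's 95% limit of 0.625 for the gap over the range allows. Chance gives about 1 in 20 groups when these are independent. The groups here share mice and related values, so the 6 cannot be read as an excess over that rate. In 4 of the 6 the mouse was male Nell-1+/6R 3. Its Grin2a level was 28.7 CPM, against 7.58 to 12.6 CPM in the other 5 Nell-1+/6R mice. Its Grin2b level was 148 CPM, against 91.8 to 104 CPM. Its ratio of Grin2a to Grin2b counts was 0.194 against 0.0826 to 0.121, and its ratio of Grin2b to Grin1 counts was 0.337 against 0.182 to 0.231. The GC slope of that library was the most negative of the 12, at -0.183 log2 per 10 GC points.

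The other flagged values concern marker lists. Cerebellar neuron markers summed to 153 CPM in female Nell-1+/6R 3, against 11.1 to 16.4 CPM in the other Nell-1+/6R mice. Choroid plexus epithelium markers summed to 5236 CPM in female Nell-1+/6R 1, against 41.8 to 74.2 CPM in the other Nell-1+/6R mice. These 2 mice were also the highest and the lowest of all 12 for Gria4. High choroid plexus sums were found in WT mice too, with 4552 CPM in male WT 3 and 2101 CPM in female WT 1. Gria4 was at 45.5 and 52.7 CPM in those WT mice.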

How the results depend on the processing

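Over 22 alternatives for the genotype difference no member passed an adjusted p under 0.05 or the fold threshold, and 25 of 220 fitted differences, over 6 members, had the opposite sign to the reported one. The count of members with an unadjusted p under 0.05, which is 1 in the report (Grin2d), was 0 with both limma-voom models (sex and genotype, genotype only), with upper-quartile factors and with the replicate block, and 0 to 1 when each mouse was left out. For Grin2d these gave an unadjusted p of 0.0662, 0.0574, 0.0504 and 0.0608 with edgeR or limma, and 0.00135 to 0.113 when each mouse was left out. The count for sex was 0, and 0 to 2 when each mouse was left out. The interaction count was 0, and 0 to 3 when each mouse was left out, with 0 to 2 past the fold threshold as well, the highest without female Nell-1+/6R 3. The pathway count of 1 became 0 under the filter of 1 CPM in 6 mice, 3 with the replicate block and 1 to 5 when each mouse was left out, the highest again without female Nell-1+/6R 3 (Cnih2, Dlgap3, Dlgap4, Shank1 and Shisa9, without Dao). Of the members' ranks by level, 6 of 10 held with the longest transcript. The cause of these changes was not tested. Same-numbered mice correlated at 0.211, 0.158 and 0.562 in females and at 0.236, -0.588 and 0.0705 in males. Of these, 3 of 6 correlated best with their own number, so the numbers were not taken as pairs. With so few mice in a group, this check cannot settle whether they are. The block changed no other call of a member or ratio. Grin3a rested on 21 to 209 counts a mouse and Grin2a on 85 to 378.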
